A study of Rattus norvegicus with 18 samples.

Results

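The nuclear genes for the subunits of oxidative phosphorylation were examined in RNA-Seq of the dorsal hippocampus of adult male Sprague Dawley rats, purchased at 75 to 85 days of age. The genes were chosen by symbol (those starting with Ndufa, Ndufb, Ndufc, Ndufs, Ndufv, Uqcr, Atp5 or Cox4 to Cox8, together with Sdha, Sdhb, Sdhc and Sdhd, without the Ndufaf assembly factors) and by a level above 0.5 CPM (read pairs of a gene scaled to library size) in at least 6 libraries. Of 38445 genes in the count files, 175 bore such a symbol and 89 passed the level, of which 84 were annotated as protein coding and 5 as pseudogenes. Control rats (n = 6) were given Lieber-DeCarli control liquid diet, ethanol rats (n = 6) were maintained on the diet with 9% ethanol for 16 days and taken without withdrawal, and withdrawal rats (n = 6) had 15 days of 9% ethanol followed by 24 h on control diet. All rats were wild type by their labels, and each library came from 1 animal.

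Oxidative phosphorylation takes place in the inner mitochondrial membrane. Complexes I to IV pass electrons from NADH and succinate to oxygen and, except for complex II, pump protons, and complex V, the ATP synthase, uses the proton gradient to make ATP. Most subunits are encoded in the nucleus and a small core is encoded in the mitochondrial genome. Neurons depend on this pathway for the ion pumping that follows synaptic activity, and several subunits have isoforms restricted to muscle, lung or testis.

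Between 30873228 and 42679748 read pairs were counted on genes per library. CPM values were normalized with the trimmed mean of M values (TMM), and differential expression (DE) was called at q < 0.1 with limma-voom and 3 surrogate variables among 17853 genes. By the first library index in the names of the deposited files, the 6 control libraries formed 1 set, the ethanol libraries and withdrawal rats 1 and 2 another, and withdrawal rats 3 to 6 a further one, so index set and control diet cannot be told apart. Of 9 markers of hippocampal subfields, 7 were expressed in every rat and Fibcd1 and Lefty1 were at or near 0, and the summed level ran from 268 CPM in withdrawal rat 5 to 704 CPM. In bulk tissue, a change in the number of cells of a type and a change in RNA per cell cannot be told apart.

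The promoters of 3 subunit genes are shown because they contrast the member that was DE (Cox8a), the most abundant gene of complex IV (Cox4i1) and an isoform that was barely detected (Cox8b). Each run is the 250 bases before the start site, 5′ to 3′ on the gene's strand, from RefSeq on GRCr8. Cox8a was read from the minus strand at chr1:213833624-213833873, Cox4i1 from the plus strand at chr19:65630133-65630382 and Cox8b from the minus strand at chr1:205408274-205408523. Capitals mark matches to ETS (CCGGAAG) or SP1 (GGGCGG) letters on either strand.
Cox8a: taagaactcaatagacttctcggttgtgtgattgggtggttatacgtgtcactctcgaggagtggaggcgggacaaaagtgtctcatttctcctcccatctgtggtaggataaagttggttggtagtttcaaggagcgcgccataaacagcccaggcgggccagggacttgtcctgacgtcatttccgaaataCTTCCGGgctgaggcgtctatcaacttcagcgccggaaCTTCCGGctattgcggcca
Cox4i1: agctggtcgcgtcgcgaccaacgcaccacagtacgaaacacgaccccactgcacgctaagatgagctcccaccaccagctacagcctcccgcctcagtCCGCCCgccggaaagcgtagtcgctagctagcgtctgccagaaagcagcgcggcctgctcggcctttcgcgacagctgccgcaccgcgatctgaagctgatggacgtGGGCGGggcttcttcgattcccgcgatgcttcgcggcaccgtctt
Cox8b: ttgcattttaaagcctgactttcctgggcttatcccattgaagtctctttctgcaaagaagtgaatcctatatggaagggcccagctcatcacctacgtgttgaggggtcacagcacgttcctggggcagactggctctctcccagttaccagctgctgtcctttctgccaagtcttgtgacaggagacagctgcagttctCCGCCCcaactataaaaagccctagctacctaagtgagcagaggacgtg
Cox8a held the ETS letters from 57 to 51 and from 19 to 13 bases before its start, Cox4i1 held the SP1 letters from 152 to 147 and from 45 to 40 bases before it, and Cox8b held SP1 letters from 49 to 44 bases before it. None of these matches overlapped another. In the windows that include 50 bases after the start, Cox4i1 also held 2 matches to the ETS letters, as many as Cox8a. Over windows of 300 bases (250 before and 50 after the start), 74 of the 84 protein-coding members had a RefSeq promoter. The ETS letters were in 20 of the 74 and in 15.0% of the promoters of 13076 tested genes, and those of NRF1, a regulator of respiratory genes (GCGCA, any base, GCGC), were in 14 members (18.9%) and 8.43% of tested genes. The YY1 letters (AAGATGGCG) were in 9 members (12.2%) and 3.12% of tested genes, whereas SP1 letters were in 29 members (39.2%) and 57.2% of tested genes. The letters of the ERR family (TCAAGGTCA) were in 2 members, Atp5mc3 and Sdhd, and 0.283% of tested genes. The STAT letters (TTCCNGGAA) were in 3 members, Cox5b, Cox7a2 and Ndufa11, and 1.2% of tested genes. A match is a description of letters and not of binding.

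Levels between genes are compared as TPM, which divides the counts by exonic length before scaling to library size. In control rats, 70 of the 89 members, all with a mean above 10 CPM, were in the top 10% of the tested genes by TPM. This is a description, since members were chosen by a minimum level and the 86 genes under it are not counted. Members summed to between 8169 and 9122 CPM in control rats, between 8785 and 9876 CPM with ethanol and between 8766 and 9272 CPM after withdrawal, so the ranges overlapped.

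Among protein-coding members above 10 CPM, the median level was 216 TPM for the 35 genes of complex I, 242 TPM for the 4 of complex II, 321 TPM for the 8 of complex III, 621 TPM for the 12 of complex IV and 534 TPM for the 17 of complex V. Ndufa4 and Ndufa4l2 were counted with complex IV, where the NDUFA4 protein is found. The most abundant was Atp5f1b, the catalytic beta subunit of the ATP synthase, at 1578 ± 50.7 TPM (SD, n = 6 control rats), followed by Cox4i1, a regulatory subunit of cytochrome c oxidase, at 1226 ± 50.5 TPM. In complex I, levels ran from 70.2 TPM for Ndufa10 to 491 TPM for Ndufb8, both accessory subunits. Complex II was the most even, from 218 TPM for Sdhd, a membrane anchor, to 333 TPM for Sdha, the flavoprotein that oxidizes succinate. Complex III ran from 76.4 TPM for Uqcrq to 516 TPM for Uqcrh, the hinge protein. The TPM values of the genes of 1 complex were therefore not equal, with a ratio of highest to lowest of 1.53 in complex II and 12.5 in complex V. These ratios depend on annotated exonic lengths and on which read pairs were counted. By CPM in control rats, Ndufa10 (124 CPM, 4968 bases) lay above Ndufb8 (114 CPM, 653 bases).

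**Figure D1:**
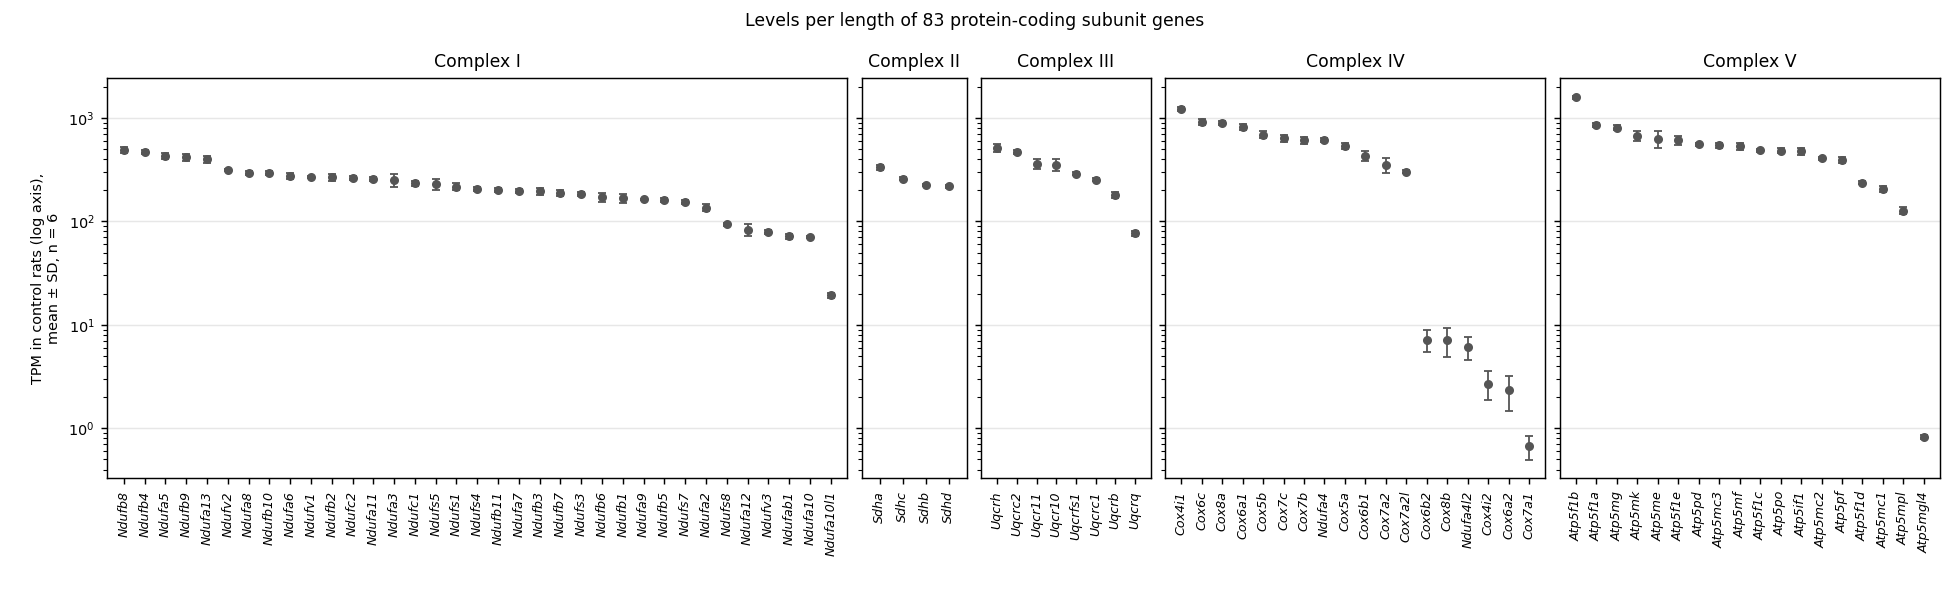
Levels per length in control rats (TPM, log axis) of 83 of the 84 protein-coding subunit genes by complex, as mean ± SD over 6 rats. Most genes lie between 70.2 and 1578 TPM, and the isoforms Cox6b2, Cox8b, Ndufa4l2, Cox4i2, Cox6a2 and Cox7a1 and the copy Atp5mgl4 lie below 10 TPM.

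Where a subunit has tissue-restricted isoforms, the ubiquitous gene made up nearly all of the transcripts. In control rats, the share of the second gene, per length, was 0.220% ± 0.0686 for Cox4i2 beside Cox4i1, 0.285% ± 0.108 for Cox6a2 beside Cox6a1, 1.65% ± 0.366 for Cox6b2 beside Cox6b1, 0.190% ± 0.0402 for Cox7a1 beside Cox7a2 and 0.802% ± 0.251 for Cox8b beside Cox8a (SD, n = 6). The share of Cox7a1 uses an annotated exonic length of 4906 bases, against 479 bases for Cox7a2, so its rank among these shares depends on length. The control means were 1.17 CPM for Cox7a1 and 60.4 CPM for Cox7a2. Cox4i2 is known from lung, Cox6a2, Cox7a1 and Cox8b from heart and skeletal muscle and Cox6b2 from testis. Ndufa4l2, a relative of Ndufa4, made up 0.992% ± 0.229 of that pair. In contrast, Ndufa10l1 made up 21.5% ± 0.833 of the sum with Ndufa10, and reads shared by such close copies were not counted. That share depends on annotated exonic lengths of 1434 bases for Ndufa10l1 and 4968 bases for Ndufa10. Their control means were 9.84 and 124 CPM.

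The c subunit, which forms the rotating ring of the ATP synthase, is made from 3 genes whose mature proteins are the same. In control rats, Atp5mc3 gave 47.0% ± 0.790 of their transcripts per length, Atp5mc2 35.2% ± 1.09 and Atp5mc1 17.8% ± 0.872. The share of Atp5mc2 lay between 33.8% and 36.8% in control rats and between 30.7% and 34.96% in withdrawal rats, with means of 35.2% and 32.96% (two-sided exact permutation test, p = 0.0173, adjusted p = 0.173 over 30 comparisons of shares). The share of Cox6b2 was 1.24% ± 0.0839 in withdrawal rats, 2.09% ± 0.726 in ethanol rats and 1.65% ± 0.366 in control rats. Withdrawal against ethanol and withdrawal against control gave the same values (exact permutation p = 0.00866, adjusted p = 0.13). None of the 30 comparisons of shares passed an adjusted p of 0.05, and the lowest adjusted value was 0.13.

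The 12 members at or under 10 CPM were measured less precisely, and the median half-width of their 95% interval of the log2 fold change was 0.48 between ethanol and control rats, against 0.11 for the 77 members above 10 CPM. Ndufa10l1, at 9.84 ± 0.454 CPM in control rats, was an exception among the 12, with an interval of -0.24 to 0.02. The members nearest to the level required were Cox6a2, above 0.5 CPM in 9 libraries, and Cox8b, in 13, while Cox7a2l2 with 3 libraries, Ndufb11b with 2 and Ndufs6 with 1 lay just outside. Of 86 genes with a matching symbol under the level, 26 were protein coding. They included Ndufa1, Ndufs6 and Atp5pb, parts of complex I and of the stator of the ATP synthase, with 2, 111 and 120 read pairs over all 18 rats. Pairs with more than 1 mapping position were left out by the authors, which lowers genes with close copies, so a low count here is not a measure of expression.

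The comparison of ethanol with control rats asks what continued ethanol intake changed. A single subunit gene was DE, Cox8a, which was higher in the ethanol rats (0.493% of all 17853 genes tested were DE, and 0.336% were DE and higher). Cox8a encodes the ubiquitous form of a small membrane subunit of cytochrome c oxidase and lies at chr1:222466575-222468896 on the minus strand of Rnor_6.0. Its CPM ran from 146 over a median of 155 to 172 in control rats, from 175 over 180.0 to 192 with ethanol and from 145 over 165 to 175 after withdrawal. All 6 ethanol rats lay above all 6 control rats and above all 6 withdrawal rats. The log2 fold change was 0.19 ± 0.04 (SE), or 1.14-fold, from 156 ± 8.60 to 182 ± 6.02 CPM (limma-voom, p = 6.72e-05, q = 0.0688), and the exact permutation test without surrogate variables gave p = 0.00216, the smallest value that 924 splits of 6 against 6 allow. Cox8a was called in 10 of the 18 fits that left out 1 rat, where its q ran from 0.0436 to 0.217 and its log2 fold change from 0.17 to 0.21. The call was lost without control rat 1, 2, 3, 4 or 6 and without ethanol rat 2, 3 or 6.

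**Figure D2:**
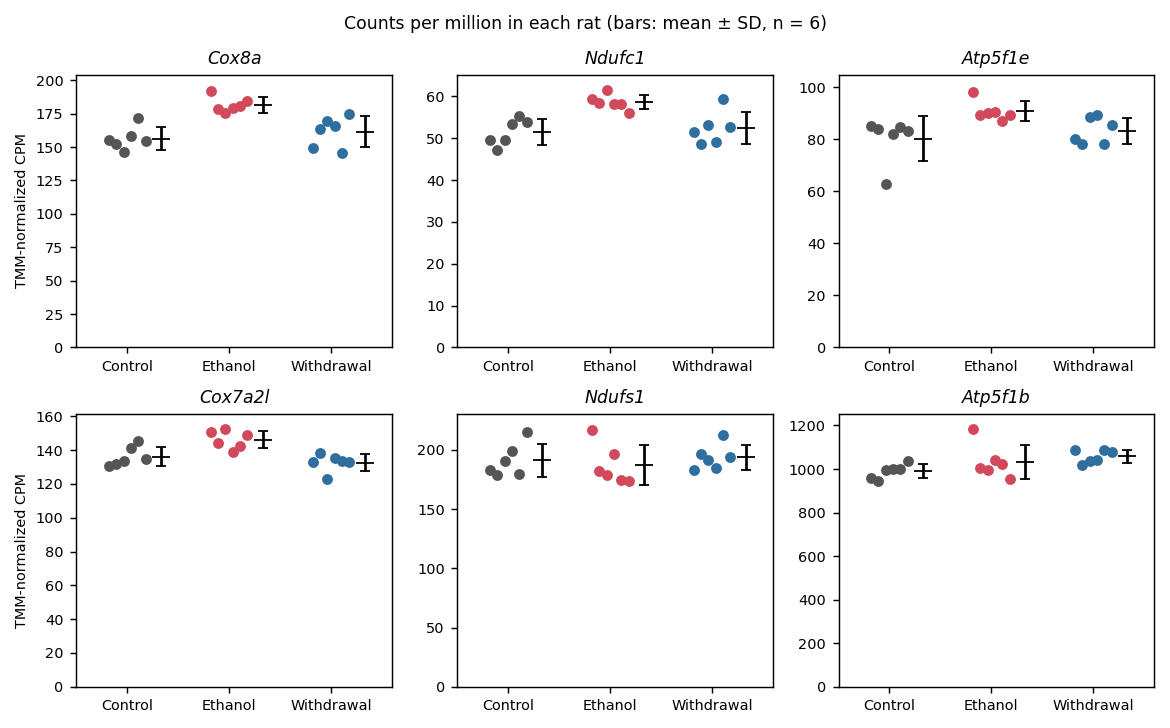
TMM-normalized CPM of 6 subunit genes in each rat (points) with the mean ± SD of 6 rats per group (bars), on axes that start at 0. The ethanol rats lie above every control rat for Cox8a, Ndufc1 and Atp5f1e, and above every withdrawal rat for Cox8a and Cox7a2l.

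With Cox8a, 10 of 89 members (11.2%) had an unadjusted p under 0.05, against 12.5% of all genes tested, and the other 9 did not pass q < 0.1. The count of 10 was 4 without control rat 3 or ethanol rat 2, 6 without control rat 1 or 6, and 17 without surrogate variables. Among the genes described here, Ndufc1, Atp5f1e, Ndufv2, Ndufb9, Ndufb10, Uqcrq, Uqcrc2 and Atp5me were chosen after their values were seen. Ndufc1, an accessory subunit of the membrane arm of complex I, ran from 47.3 over 51.5 to 55.3 CPM in control rats and from 56.1 over 58.4 to 61.4 CPM in ethanol rats, so the groups did not overlap (log2 fold change 0.17 ± 0.05, limma-voom q = 0.159). Atp5f1e, the epsilon subunit of the ATP synthase, ran from 62.8 over 83.7 to 85.3 CPM in control rats and from 87.3 over 89.9 to 98.2 CPM in ethanol rats, also without overlap (log2 fold change 0.16 ± 0.07, q = 0.35). Cox8a, Ndufc1 and Atp5f1e were the 3 members whose ethanol and control rats did not overlap, and 1.32% of all genes tested did not overlap in either direction.

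Further members of all complexes had smaller values. Cox4i1 was 304 ± 16.5 CPM in control rats and 328 ± 10.8 CPM in ethanol rats (log2 fold change 0.09 ± 0.04, limma-voom q = 0.361). Sdhd was 94.8 ± 3.89 and 103 ± 4.48 CPM (0.08 ± 0.04, q = 0.387), and Uqcrq, a small subunit of complex III, was 42.6 ± 2.58 and 46.8 ± 3.06 CPM (0.13 ± 0.06, q = 0.352). Ndufs1, which carries iron-sulfur clusters of the electron input arm of complex I, had the only negative value among the members with p under 0.05. It was 191 ± 14.1 CPM in control rats and 187 ± 16.9 CPM in ethanol rats, with a log2 fold change of -0.11 ± 0.04 after adjustment for surrogate variables (q = 0.283) and a difference of -0.03 in mean log2 CPM without it (exact permutation p = 0.604). The alpha and beta subunits of the ATP synthase, which form its catalytic head, had log2 fold changes of -0.01 ± 0.03 for Atp5f1a (q = 0.935) and 0.01 ± 0.04 for Atp5f1b (q = 0.915), and intervals of -0.08 to 0.06 and -0.06 to 0.09.

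Across all 89 members the median log2 fold change between ethanol and control rats was 0.04, against 0.00 over all genes tested, and 61 members (68.5%) lay above 0 against 50.1% of all genes. It was 0.01 without control rat 3, with 54 above 0, and 0.07 without surrogate variables, with 73 above 0. The median was 0.18 over 137 genes with the symbol of a cytosolic ribosomal protein, pseudogenes such as Rpl23a-ps20 included, with 85.4% above 0. It was 0.03 over 73 genes of mitochondrial ribosomal proteins, with 67.1% above 0. The median was 0.08 over the 12 genes of complex IV above 10 CPM and 0.04 over the 35 of complex I and the 17 of complex V. It was 0.02 over the 4 of complex II and the 8 of complex III. Transcript length moved with this value. The median was 0.06 over the 53 members above 10 CPM with up to 1000 exonic bases and 0.01 over the 24 longer members, and it was 0.07 over all 524 genes above 10 CPM of up to 1000 bases (subunit genes included), of which 73.9% lay above 0. Cox8a has 495 exonic bases. Of those 524 genes, 3.24% were DE between ethanol and control rats and 43 were higher in every ethanol rat than in any control rat. The part of transcript length in the values of the subunit genes was not tested. Markers of red blood cells were also lower in ethanol rats, where 6 of the 7 listed genes were in the files and 5 of 5 tested were DE. They summed to between 37.4 and 97.2 CPM in ethanol rats and between 128 and 227 CPM in control rats, with Hbb-b1 at or near 0. The 7 choroid plexus markers summed to between 1087 and 2267 CPM in control rats, between 1443 and 5340 CPM with ethanol and between 29.1 and 5351 CPM after withdrawal. None of them was DE in any comparison by limma-voom, and their median log2 fold change was 0.33 for ethanol against control, -0.06 for withdrawal against control and -0.40 for withdrawal against ethanol. The part of either marker list in the values of the subunit genes was not tested.

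**Figure D3:**
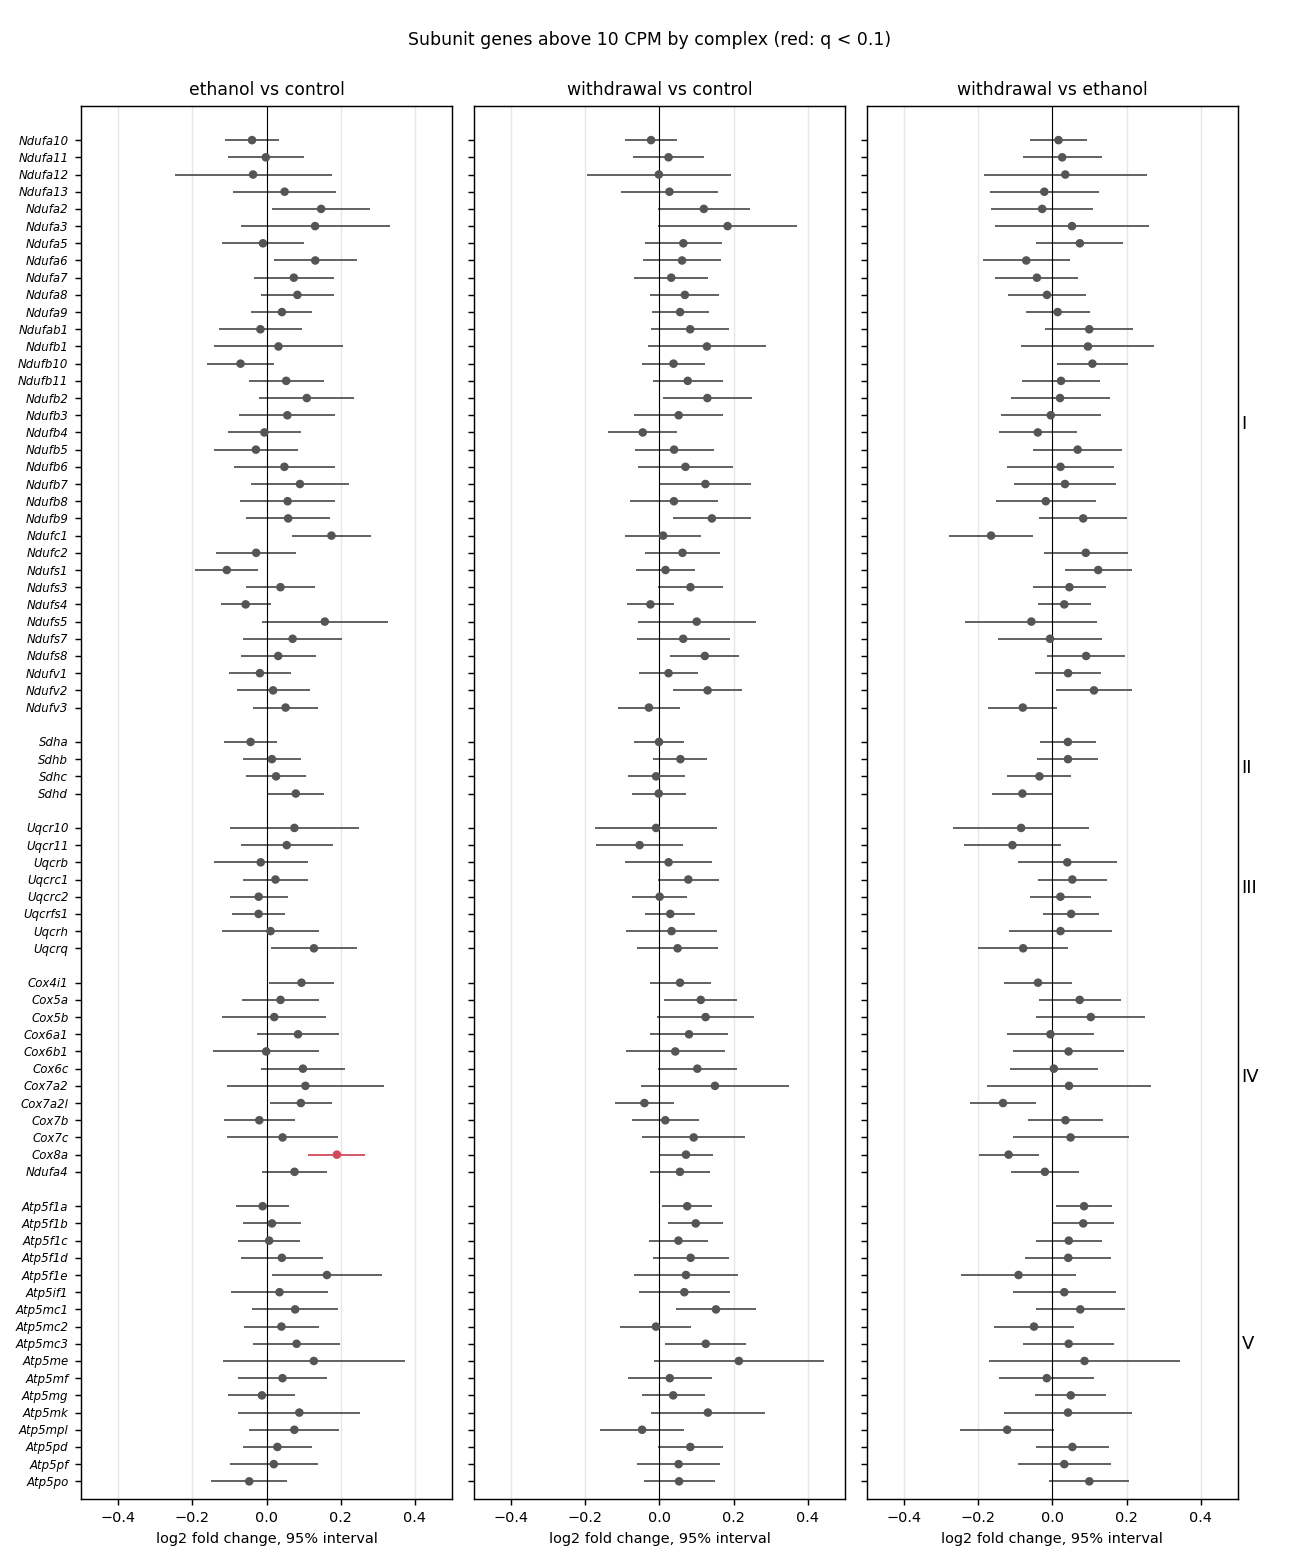
Log2 fold changes with 95% intervals (limma-voom) of 75 of the 76 protein-coding subunit genes above 10 CPM, by complex, in the 3 comparisons. Cox8a between ethanol and control rats is the only gene drawn in red (q < 0.1), and all values lie between -0.17 and 0.21.

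The comparison of withdrawal with control rats asks what differed a day after ethanol was removed. None of the 89 members was DE by limma-voom, while 965 of all genes tested (5.41%) were, 2.85% as higher. The genes called in all fell to 23 (0.129%) without withdrawal rat 6. At an unadjusted p under 0.05 there were 10 members, all higher in withdrawal rats, or 11.2% against 19.7% of all genes tested. That count was 23 without withdrawal rat 2, 16 without control rat 4, 6 without control rat 2, 4 without withdrawal rat 3 or 6, and 6 without surrogate variables. By edgeR (quasi-likelihood), 0 members were called with surrogate variables (5.77% of all genes) and 0 without (0.185%), and DESeq2 called 2 with surrogate variables (Atp5mc1 and Ndufv2, 2.25% of members against 9.1% of all genes) and 0 without (2.44% of all genes). In no member were the groups free of overlap, against 1.06% of all genes tested.

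These 10 were Ndufb2, Ndufb7, Ndufb9, Ndufs8 and Ndufv2 of complex I, Cox5a of complex IV, and Atp5f1a, Atp5f1b, Atp5mc1 and Atp5mc3 of complex V. Atp5mc1 was 58.7 ± 4.94 CPM in control rats and 63.9 ± 3.49 CPM after withdrawal (log2 fold change 0.15 ± 0.05, limma-voom q = 0.117). Ndufv2, which carries an iron-sulfur cluster next to the NADH site, ran from 93.0 over 95.7 to 100.3 CPM in control rats and from 97.3 over 105 to 116 CPM after withdrawal (0.13 ± 0.04, q = 0.119). Atp5f1b ran from 944 over 997 to 1036 CPM in control rats and from 1017 over 1060 to 1089 CPM after withdrawal (0.10 ± 0.04, q = 0.141), with 4 of 6 withdrawal rats above every control rat. Ndufb9, an accessory subunit, was 94.4 ± 7.16 and 104 ± 4.70 CPM (0.14 ± 0.05, q = 0.135), and Cox5a, a subunit on the matrix side of cytochrome c oxidase, was 114 ± 7.52 and 124 ± 5.28 CPM (0.11 ± 0.05, q = 0.199). Without withdrawal rat 2, 5 members passed q < 0.1, namely Atp5f1b, Atp5mc1, Atp5mc3, Ndufb9 and Ndufv2, all higher in withdrawal, which is 5.62% of members, while the genes called in all rose from 965 to 1911 (10.7%).

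Several core members did not reach an unadjusted p of 0.05. The log2 fold change was 0.00 for Sdha (95% interval -0.07 to 0.07), 0.02 for Ndufv1, the NADH-binding subunit (-0.05 to 0.10), 0.03 for Uqcrfs1, the Rieske protein (-0.04 to 0.10), 0.06 for Cox4i1 (-0.03 to 0.14) and 0.08 for Uqcrc1, a core protein of complex III (-0.00 to 0.16). Atp5if1, the inhibitor of ATP hydrolysis, was 81.5 ± 6.21 CPM in control rats and 86.2 CPM on average in withdrawal rats (0.07, interval -0.06 to 0.19). For all 77 members above 10 CPM, the 95% interval lay within 0.5 of 0 on the log2 scale, which is 1.41-fold.

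The median log2 fold change over the 89 members was 0.06, with 69 above 0, against 0.00 and 50.1% of all genes tested. Without control rat 3 it was 0.03, with 60 above 0. It was 0.08 over the genes of complex IV, 0.07 over complex V, 0.06 over complex I, 0.03 over complex III and 0.00 over complex II, each above 10 CPM. All genes above 10 CPM with up to 1000 exonic bases had a median of 0.05, with 72.1% above 0. The median was 0.12 over the cytosolic ribosomal protein symbols (78.8% above 0) and 0.08 over proteasome subunits (84.6%). For mitochondrial ribosomal proteins it was 0.03 (68.5%). Cell-type markers also differed between these groups. Red blood cell markers were lower in withdrawal rats (5 of 5 tested were DE, summed level 42.0 to 152 CPM against 128 to 227 CPM), 3 of 6 endothelial markers were DE (summed level 269 to 352 against 252 to 317 CPM), and 3 of 7 astrocyte markers were DE (2439 to 3983 against 2907 to 3289 CPM). The astrocyte markers did not move one way, with a median log2 fold change of -0.01, a mean of Gfap of 1327 CPM after withdrawal against 939 CPM, and lower means of Aqp4, Gja1, Aldh1l1 and Gjb6. Of 6 mural cell markers 1 was DE (median log2 fold change 0.25), and of the 7 subfield markers tested 1 was DE (median -0.14). None of the endothelial or astrocyte markers was at 0 in any rat. The part of transcript length and of these markers in the values of the subunit genes was not tested.

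The comparison of withdrawal with ethanol rats asks what changed within a day of removal. None of the 89 members was DE by limma-voom (2.72% of all genes tested were, but 0 without ethanol rat 2, ethanol rat 3 or withdrawal rat 6, and 10.1% without ethanol rat 5), and 8 (8.99%) had an unadjusted p under 0.05 against 16.7% of all genes tested, of which 4 were higher and 4 lower in withdrawal rats. That count was 5 without ethanol rat 3 or withdrawal rat 6, 13 without ethanol rat 5 and 15 without withdrawal rat 2. Here the call depended on the model. The edgeR test called 0 members with surrogate variables (2.98% of all genes) and 4 without (4.49% of members, 3.82% of all genes). DESeq2 called 5 with surrogate variables (5.62% of members, 6.59% of all genes) and 7 without (7.87% and 8.08%). Limma-voom without surrogate variables called 4 (4.49% of members, 3.48% of all genes), namely Cox7a2l, Cox8a and Ndufc1, which were lower in withdrawal rats, and Ndufb10, which was higher. These shares of members were near those of all genes.

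The lowest p was that of Cox7a2l, a relative of Cox7a2 known to join complexes III and IV into supercomplexes. It ran from 139 over 147 to 152 CPM with ethanol and from 123 over 133 to 138 CPM after withdrawal, so the groups did not overlap (log2 fold change -0.13 ± 0.04, limma-voom q = 0.126, exact permutation p = 0.00216). Cox8a was lower in each of the 6 withdrawal rats than in any ethanol rat, from 182 ± 6.02 to 161 ± 11.6 CPM (-0.12 ± 0.04, limma-voom q = 0.135), and Cox7a2l and Cox8a were the 2 members without overlap, against 1.22% of all genes tested. Ndufc1 was 58.6 ± 1.75 CPM with ethanol and 52.4 ± 3.84 CPM after withdrawal (-0.17 ± 0.05, q = 0.135). Ndufs1 was 187 ± 16.9 and 194 ± 10.7 CPM (0.12 ± 0.04, q = 0.155). The neuron, astrocyte and mural cell marker lists each held 1 DE gene between withdrawal and ethanol rats, and their part in the values of the subunit genes was not tested. Cox6b2 had the largest negative value of the 89 members, from 1.94 ± 0.653 to 1.14 ± 0.128 CPM (-0.69 ± 0.25, q = 0.173), at a level near the minimum.

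The values of the ethanol and withdrawal groups against control share the 6 control rats and the comparison of withdrawal with ethanol shares the 6 ethanol rats. Side by side, the log2 fold changes against control were 0.19 in ethanol and 0.07 in withdrawal rats for Cox8a, 0.09 and -0.04 for Cox7a2l, 0.02 and 0.13 for Ndufv2, and 0.01 and 0.10 for Atp5f1b. The median over all members between withdrawal and ethanol rats was 0.03 with surrogate variables, with 56 of 89 above 0 against 49.9% of all genes tested, and 0.00 without, with 41 above 0. Among the libraries of the shared index (6 ethanol rats, withdrawal rats 1 and 2), it was -0.01. That fit called 0 of 17519 genes by limma-voom, so its 0 members called say nothing about the subunit genes, of which 6 had an unadjusted p under 0.05.

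Single rats moved most subunit genes together. Control rat 3 had the lowest value of all 18 rats for 47 of the 77 members above 10 CPM, and ethanol rat 1 had the highest value for 38. As the median log2 difference of the 89 members from the control mean, control rat 3 was at -0.13 and the other control rats between -0.04 and 0.07. Ethanol rat 1 was at 0.19 and the other ethanol rats between 0.01 and 0.07. The withdrawal rats lay between 0.02 and 0.10, within the range of the other groups.

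In control rat 3 the low values were mostly those of short transcripts, with a median of -0.19 over the 53 members of up to 1000 exonic bases and -0.01 over the 24 longer ones, and of -0.10 over all 524 genes of up to 1000 bases. Some longer members were also lowest of all 18 rats there, such as Uqcrq (1564 bases), Ndufab1 (2773 bases) and Ndufv3 (1536 bases). In ethanol rat 1 both classes were high, at 0.20 and 0.16. Ethanol rat 1 also had the highest summed level of the 6 thalamus markers, 1370 CPM, against 189 CPM in the lowest ethanol rat and a median of 361 CPM, and the lowest summed level of the 8 neuron markers, 4726 CPM. No thalamus marker was at 0 in any rat. The part of these differences in the values of the subunit genes was not tested. With control rat 3 and ethanol rat 1 both left out, an alternative chosen after the data were seen, the median between ethanol and control rats was 0.01 with 55 of 89 members above 0, that between withdrawal and control rats was 0.03 with 60 above 0, and Cox8a was called between ethanol and control rats (log2 fold change 0.17, limma-voom q = 0.0906). With control rat 3 alone left out, the median between ethanol and control rats was 0.01 and Cox8a was not called (0.18, q = 0.127). With ethanol rat 1 alone left out, the median was 0.04.

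**Figure D4:**
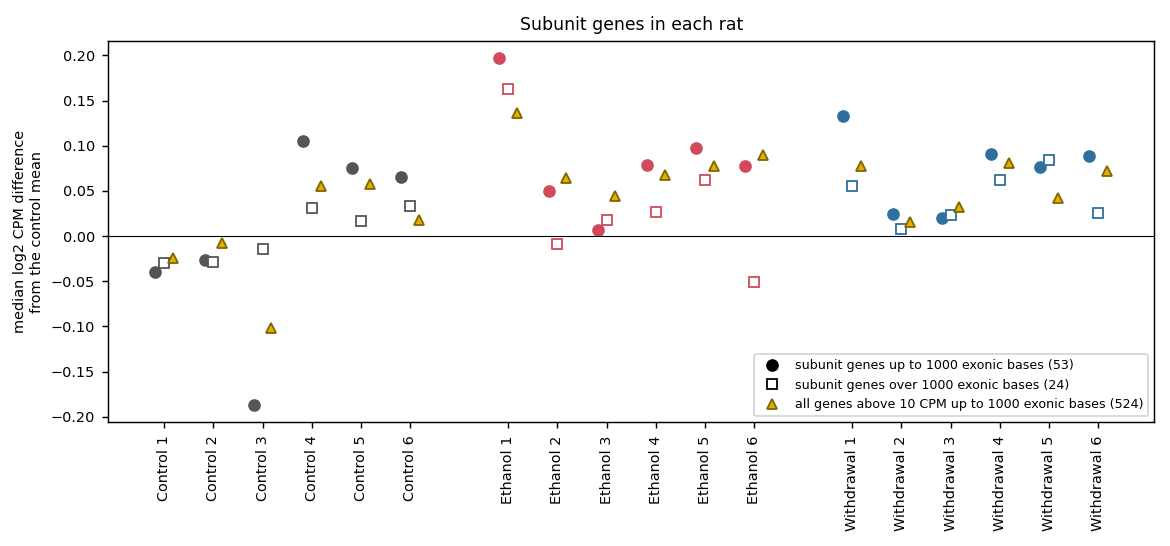
Median log2 CPM difference from the control mean in each rat for the 53 shorter and 24 longer subunit genes above 10 CPM, and for all 524 genes above 10 CPM of up to 1000 exonic bases. Control rat 3 is lowest at -0.19 and ethanol rat 1 highest at 0.20 for the shorter subunit genes.

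Gene by gene, the subunit genes above 10 CPM varied less within groups than all genes above 10 CPM, which were not matched to them for level. The median SD of log2 CPM within groups was 0.09 over the 77 members above 10 CPM and 0.12 over all 10516 genes above that level. Uqcrc2, a core protein of complex III, had the lowest SD among the members (0.05) and Atp5me, a subunit of the membrane part of the ATP synthase, the highest (0.21), with 40.1 CPM in control rat 3 and between 66.0 and 73.7 CPM in the other control rats. As a set, the shorter members had a median that varied across control rats with an SD of 0.11. That SD was 0.06 for all genes above 10 CPM of the same length class.

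The other genes of the pathway were read against the share of all genes called, which was 5.41% for withdrawal against control, 0.493% for ethanol against control and 2.72% for withdrawal against ethanol. Of the 45 tested assembly factors, which build the complexes, 1 (2.22%) was DE between withdrawal and control rats, Lyrm7, which fell by 0.22 on the log2 scale (SE 0.06, limma-voom q = 0.0683) from 23.7 ± 1.32 to 20.6 ± 1.90 CPM. Lyrm7 helps to insert the Rieske protein into complex III. The median of the assembly factors was -0.04, with 15 of 45 above 0. Between withdrawal and ethanol rats, 1 assembly factor (2.22%) was DE, Lrpprc, an RNA-binding protein that stabilizes mitochondrial transcripts, at 148 ± 7.55 CPM in withdrawal and 131 ± 9.33 CPM in ethanol rats (log2 fold change 0.21 ± 0.05, q = 0.065).

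Among the 16 biogenesis regulators, Ppargc1a, the coactivator PGC-1alpha that drives transcription of respiratory genes, was DE as the single call (6.25%) between withdrawal and ethanol rats, at 73.3 ± 7.37 and 65.4 ± 3.33 CPM (0.15 ± 0.04, limma-voom q = 0.0936), and none was DE in the other comparisons. Among the 22 genes of pyruvate oxidation and the citric acid cycle, Idh2 was the single gene DE (4.55%) between withdrawal and control rats (0.17 ± 0.05, q = 0.0757), with an exact permutation p of 0.539 without surrogate variables, at 62.8 ± 12.7 and 58.2 ± 2.64 CPM. Between withdrawal and ethanol rats none of the 22 was DE by limma-voom, 8 (36.4%) had an unadjusted p under 0.05 and 20 had a log2 fold change above 0. None of the 5 electron carriers and partner subunits or the 10 carriers and porins was DE in any comparison by limma-voom. At an unadjusted p under 0.05 there were 1, 0 and 1 of the former and 1, 0 and 4 of the latter between withdrawal and control, ethanol and control, and withdrawal and ethanol rats, where all genes tested had 19.7%, 12.5% and 16.7%.

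Mitochondrial ribosomal proteins, which translate the subunits encoded in the organelle, were tested in 73 genes, of which 3 (4.11%) were DE and higher in withdrawal than in control rats, against 2.85% of all genes called higher. They were Mrps6 (0.29 ± 0.08, limma-voom q = 0.0603, exact permutation p = 0.152), Mrpl12 (0.16 ± 0.04, q = 0.0746, exact permutation p = 0.00216) and Mrps35 (0.15 ± 0.05, q = 0.0826, exact permutation p = 0.013). The protein genes of the mitochondrial genome are not analysed here. Of its 19 features tested, which are short except for 2 of 958 and 1571 bases, 2 were DE between withdrawal and control rats and both were higher. A short one of these was also DE and higher in ethanol than in control rats, at 63.6 ± 5.16 and 51.05 ± 2.63 CPM (0.33 ± 0.07, limma-voom q = 0.0809), against 61.6 ± 5.598 CPM after withdrawal (0.25 ± 0.06, q = 0.0503). All 19 features had a log2 fold change above 0 between ethanol and control rats, and 18 had one between withdrawal and control rats. The feature of 958 bases was 3541 ± 75.8 CPM in control rats and 3991 ± 275 CPM in withdrawal rats (0.17 ± 0.04, limma-voom q = 0.0383), and the one of 1571 bases was 4835 ± 273 and 5289 ± 476 CPM (0.14 ± 0.06, q = 0.166). The 24 mitochondrial features with counts given, of which 2 were over 100 bases, took between 0.849% and 1.02% of the counts in every library. This is not the share of all mitochondrial transcripts, since the protein genes are not among these features.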

How the data were processed

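Libraries of 18 rats (dorsal hippocampus) were sequenced by the authors in paired ends, aligned with STAR 2.5.2a to Rnor_6.0 and counted per gene by strand on exons with featureCounts 1.5.0, without multimapping pairs. The deposited values are raw counts per gene, with no normalization. Names for 29322 of 38445 IDs came from the RefSeq table of GRCr8 and gene coordinates from the files. Groups came from the treatment labels. Genes above 0.5 CPM in at least 1 rat (17853) were tested with edgeR 4.0.16 TMM factors, limma 3.58.1 voom and 3 surrogate variables (sva 3.50.0) in 1 model of the 3 groups, with Benjamini-Hochberg q < 0.1. For single genes, log2 CPM values (prior count 2) also went into an exact permutation test, two-sided. Fits were tested on simulated data first. Alternatives were DESeq2 1.42.0, edgeR's quasi-likelihood test, other normalizations, filters, weights, samples and numbers of surrogate variables. Genes were named if DE, of extreme fold change or level, core subunits, isoforms, or DE in a pathway list. The members and lists were chosen with earlier results of these data known. A single member counted in the totals is not reported here by name or drawn in the plots of single genes.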

Additional observations from a re-analysis of the deposited data

Results flagged for a closer look

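In 11 of 117 groups of 6 rats tested, 1 rat lay far from the other 5, by a gap of more than 0.625 of the group's range, and chance gives about 1 in 20. Ethanol rat 1 was highest for Atp5f1a (642 CPM, next 577), Atp5f1b (1182 CPM, next 1039) and the median log2 difference of all members from the control mean (0.19, next 0.07). Control rat 3 was lowest for Cox5a (99.8 CPM, next 115) and Cox5b (98.1 CPM, next 121), and control rat 6 was highest for Atp5f1a (598 CPM, next 563) and Uqcrc1 (152 CPM, next 141). Single values stood apart for Ndufs7 in control rat 1 (48.3 CPM, lowest, next 53.3), Cox7a1 in control rat 4 (1.80 CPM, highest, next 1.19), Cox7a2l in withdrawal rat 3 (123 CPM, lowest, next 133) and Atp5mc3 in withdrawal rat 2 (149.7 CPM, lowest, next 159).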

How the results depend on the processing

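No value of the 38 named genes that was called changed direction under an alternative. Of 3914 values under alternatives, 3879 kept their direction and side of q < 0.1 or stayed uncalled, 25 became called, and 10 lost the call, all of Cox8a between ethanol and control rats. Another sign was seen in 196 uncalled values. Genes chosen after their values were seen are not among the 38. Of these, Ndufc1, Ndufv2, Ndufb9 and Ndufb10 each became called in some fits. The number of members called between ethanol and control rats was 0 at q < 0.05 (10 genes in all), 0 without a filter on low counts (9) and 0 with a replicate block (0), and 2 by DESeq2 with and without surrogate variables (473 and 431 genes in all). Between withdrawal and control rats it was 2 by DESeq2 with surrogate variables (1624 genes in all) and 1 with sample quality weights (1132). Between withdrawal and ethanol rats it was 4 without surrogate variables (621 genes in all), 4 by edgeR without them (682), 1 with 4 surrogate variables (896), 5 by DESeq2 with surrogate variables (1176), 7 by DESeq2 without (1443), and 2 with quality weights (1073).

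Leaving out 1 rat at a time gave 0 to 5 members called between withdrawal and control rats (5 without withdrawal rat 2, with 10.7% of all genes called, and 1 without ethanol rat 5, with 6.19%), 0 to 1 between ethanol and control rats (0 to 258 genes in all), and 0 to 5 between withdrawal and ethanol rats (5 or 5.62% without ethanol rat 5, with 10.1% of all genes called, and 1 without ethanol rat 4, withdrawal rat 2 or withdrawal rat 5, with 3.15%, 5.66% and 3.81%). The medians over members ran from 0.03 to 0.07, from 0.01 to 0.05 and from 0.01 to 0.05. Rats of the same number did not deviate together (correlations from -0.32 to 0.38, 4 of 18 above 0.1). The paper states that rats were pair fed, and these correlations cannot show whether the numbers mark pairs. The replicate block gave 0 members called in each comparison and 0, 0 and 14 genes in all. Where a call changed, the cause was not tested.

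Between withdrawal and control rats, 965 genes were called with 3 surrogate variables and 41 without, between ethanol and control rats 88 and 50, and between withdrawal and ethanol rats 486 and 621.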
